A study of Mus musculus with 10 samples.

Results

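A set of genes of glutamate transport and the glutamate-glutamine cycle was examined in sorted cells of the embryonic mouse forebrain, and its 8 members were chosen by symbol out of the 14300 genes in the count table. They are the vesicular glutamate transporters Slc17a6 (VGLUT2) and Slc17a7 (VGLUT1), the plasma membrane glutamate transporters Slc1a1 (EAAT3), Slc1a2 (GLT-1) and Slc1a3 (GLAST), glutamine synthetase Glul, and the glutamine transporters Slc38a1 (SNAT1) and Slc38a2 (SNAT2). All 8 were in the table, and each had at least 5.44 CPM in every library. CPM are the counts of a gene scaled to the size of its library multiplied by a TMM normalization factor, unless stated otherwise. RNA was sequenced from live cells of Grem1creERT; Rosa26LSLTdtomato reporter embryos on a C57BL/6J background, a line that marks Grem1-expressing cells and their descendants with TdTomato once tamoxifen is given. Dams received tamoxifen at 13 days and 12 hours post coitum, and the dorsal telencephalon, with the meninges removed, was taken 24 hours later according to the methods of the study, while the labels name only brain. TdTomato+ and TdTomato- cells were sorted from each of 5 mouse numbers, giving 5 libraries per population. Embryos of both populations carried the same alleles and had the same tamoxifen. The TdTomato- population is every other live cell, a mixture of progenitors, other neurons and non-neural cells. Whether embryos were pooled under a mouse number is not given in the sources used here. The p-values of the paired tests therefore measure how the population difference varied between these mouse numbers.

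At a glutamatergic synapse, a vesicular transporter loads glutamate into synaptic vesicles with the proton gradient that the vacuolar ATPase makes. Released glutamate is taken up across the plasma membrane by sodium-coupled carriers of the Slc1 family, largely by GLT-1 and GLAST on astrocytes and by EAAT3 on neurons. In astrocytes glutamine synthetase turns it into glutamine, which neurons import and turn back into glutamate. In the embryonic cortex, GLAST is best known as a marker of radial glia, the progenitors of cortical neurons.

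Total counts were 23429034 to 27286180 per library. Grem1, whose promoter drives the reporter, had 63.3 ± 3.10 CPM (SD, n = 5) in TdTomato+ libraries against 6.11 ± 0.731 CPM in TdTomato- libraries, without overlap, as the labels have it. Of 8 markers of deep-layer cortical neurons, 7 were higher in TdTomato+ libraries. Of 12 radial glia markers 11 were lower, as were 8 of 8 intermediate progenitor, 8 of 8 GABAergic and 8 of 8 Cajal-Retzius markers. The GABAergic markers, known from neurons born in the ventral telencephalon, summed to 1477 to 1939 CPM in TdTomato- libraries, and how far tissue beyond the dorsal telencephalon entered the sort was not tested. In these bulk libraries, fewer cells of a type and less RNA per cell cannot be told apart.

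The population contrast was wide. A gene is called here when its adjusted p was no more than 0.05 (edgeR quasi-likelihood test, mouse as a block), and 77.3% of the 14300 tested were. Genes called higher in TdTomato+ cells were 37.9% of those tested and genes called lower were 39.4%, or 5424 and 5632 genes, against 4110 and 7123 when libraries were scaled by their size alone, without TMM factors. Among the 8 glutamate genes, 7 were called, 3 of them higher and 4 lower, a share near the background, and by library size alone 2 were called higher and 4 lower. Adding a log2 fold change of 2 or more in size as a further threshold, 12.9% of genes passed both, 3.2% higher and 9.74% lower. Of the 8 glutamate genes, 4 passed both, with Slc17a7 and Slc1a1 higher and Slc17a6 and Slc1a3 lower. CPM ranges of the populations did not overlap for 61.6% of genes, and for 6 of the 8. The median log2 fold change of the 8 was 0.00, beside -0.0063 for all genes, since the rises and falls within the group offset each other. Each of the transporter classes with more than 1 member held a gene that rose and a gene that fell, although the small rise of Slc38a1 turned without TMM factors. The plot of single libraries shows the members side by side.

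**Figure D1:**
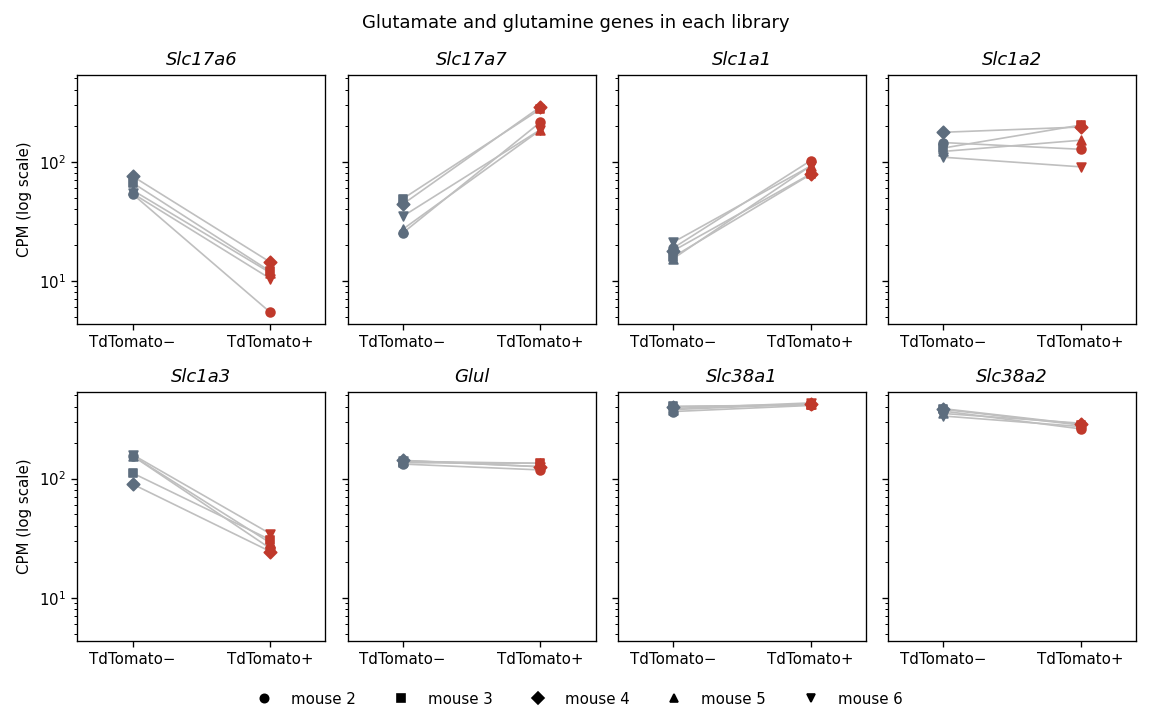
CPM (log scale) of each of the 8 genes in TdTomato- (grey-blue) and TdTomato+ (red) libraries, with a symbol for each mouse and a line joining the libraries of a mouse. Slc17a7 and Slc1a1 rise and Slc17a6 and Slc1a3 fall in all 5 mice, while Slc1a2, Glul, Slc38a1 and Slc38a2 have log2 fold changes between -0.39 and 0.13.

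The 250 bases upstream of the start site are shown for the vesicular pair, whose members moved in opposite directions, and for Slc1a3, the glial carrier that fell, so that the letters near their starts can be compared. They are RefSeq promoter windows in build GRCm38.p6, written along the gene's strand, with each E-box (CANNTG, the core bound by basic helix-loop-helix factors) in capitals. Slc17a7 is at chr7:45163671-45163920 on the plus strand, the first listed start of Slc17a6 is at chr7:51621580-51621829 on the plus strand, and Slc1a3 is at chr15:8710808-8711057 on the minus strand.
Slc17a7: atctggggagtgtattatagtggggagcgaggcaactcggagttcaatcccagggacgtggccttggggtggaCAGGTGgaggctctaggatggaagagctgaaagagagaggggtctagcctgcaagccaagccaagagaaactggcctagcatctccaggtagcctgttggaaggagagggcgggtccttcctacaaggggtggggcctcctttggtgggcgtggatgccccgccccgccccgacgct
Slc17a6: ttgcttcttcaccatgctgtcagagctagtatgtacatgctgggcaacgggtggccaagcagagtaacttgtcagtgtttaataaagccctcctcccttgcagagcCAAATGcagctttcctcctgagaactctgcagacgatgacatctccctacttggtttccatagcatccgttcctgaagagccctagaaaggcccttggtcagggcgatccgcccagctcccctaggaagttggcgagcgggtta
Slc1a3: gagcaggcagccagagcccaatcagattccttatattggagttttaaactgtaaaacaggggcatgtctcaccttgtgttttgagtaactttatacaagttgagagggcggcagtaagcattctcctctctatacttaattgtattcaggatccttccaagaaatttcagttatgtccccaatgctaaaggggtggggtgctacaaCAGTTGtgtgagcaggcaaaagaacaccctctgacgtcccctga
Each window held 1 E-box, at -177 in Slc17a7, -144 in Slc17a6 and -44 in Slc1a3, counted in bases before the RefSeq start site, and 66.2% of 32851 windows of that length hold at least 1. The windows do not reach the GENCODE gene starts that are printed for these genes further on. All motifs were searched on both strands, so a match may stand in the printed letters as its reverse complement. The GC box GGGCGG occurred 3 times in Slc17a7 and 1 time each in Slc17a6 and Slc1a3, and 32.7% of all windows hold it. Slc1a3 also held TATAAA on the opposite strand, a motif present in 12.4% of windows, and 3 copies of CCAAT over both strands, present in 33.8%. GC content was 61.2% for Slc17a7, 53.2% for Slc17a6 and 44.8% for Slc1a3, beside a median of 52.4% over all windows. A further listed start of Slc17a6, with its window at chr7:51624387-51624636, differed, with 2 E-boxes, 0 GC boxes and a GC content of 41.2%. None of the 3 printed windows held the T-box half-site GGTGTG or the RBPJ core TGGGAA, which 16.3% and 21.6% of all windows hold. RefSeq windows matched 7 of the 8 genes.

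The vesicular transporters, which define the glutamatergic phenotype of a neuron, moved in opposite directions. Slc17a7 (chr7:45163949-45176142, plus strand) was at 214.6, 276, 289, 184.6 and 186 CPM in the TdTomato+ libraries of mice 2, 3, 4, 5 and 6. The TdTomato- libraries of the same mice had 25.2, 48.8, 43.9, 27.1 and 34.8 CPM. The lowest TdTomato+ library was above the highest TdTomato- library, and mice 3 and 4 had the highest values in both populations. Mean levels were 230.0 ± 49.7 and 35.9 ± 10.3 CPM (SD, n = 5), a log2 fold change of 2.69 (SE 0.09, adjusted p = 1.3e-08, edgeR quasi-likelihood test) or 6.47-fold.

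Slc17a6 lies on the same chromosome (chr7:51622006-51671119, plus strand), 6445863 bases beyond Slc17a7, and had 5.44, 12.01, 14.3, 11.7 and 10.4 CPM in the TdTomato+ libraries of mice 2 to 6. In TdTomato- libraries it had 53.6, 66.5, 75.6, 57.7 and 54.3 CPM. All TdTomato+ values were below all TdTomato- values, the TdTomato+ library of mouse 2 had the lowest, and every library held at least 120 reads of the gene. Means were 10.8 ± 3.31 and 61.5 ± 9.40 CPM, a log2 fold change of -2.54 (SE 0.13, adjusted p = 1.4e-07) or 5.82-fold lower in TdTomato+ cells. Without mouse 2 the log2 fold change was -2.39.

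Per kilobase of annotated exon, Slc17a7 made up 95.5 ± 1.33% (SD, n = 5) of the summed vesicular transporter level in TdTomato+ libraries, with a range of 94.1 to 97.5%. In TdTomato- libraries its share was 36.4 ± 4.52%, from 32.0 to 42.3%, so Slc17a6 made up the larger part there. The sum itself was also higher in TdTomato+ libraries, at 44.7 ± 9.54 against 18.1 ± 3.45 CPM per kb, and its ranges of 36.4 to 56.2 and 14.6 to 22.1 did not overlap. A ratio within a library does not depend on the scaling between libraries. The log2 ratio of Slc17a7 to Slc17a6 counts was 4.46 ± 0.51 in TdTomato+ and -0.81 ± 0.28 in TdTomato- libraries, a difference of 5.27 that was positive in 5 of 5 mice and ran from 4.79 to 6.38. The exact sign-flip test gave p = 0.063 (two-sided), the smallest value 5 pairs allow, so the paired test could not pass 0.05. An exact permutation of 5 against 5 libraries, which ignores the pairing by mouse, gave p = 0.00794, likewise the smallest for that design.

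**Figure D2:**
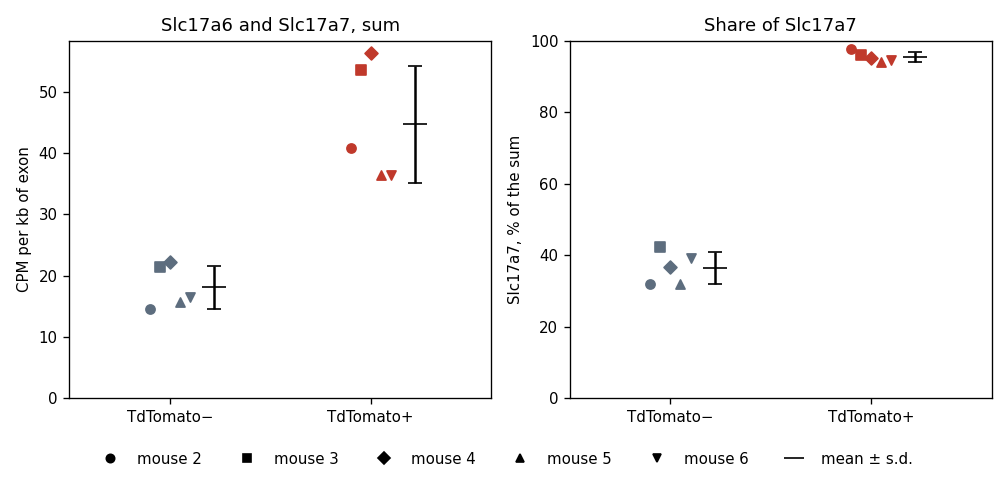
Left, summed Slc17a6 and Slc17a7 level in CPM per kb of exon; right, share of Slc17a7 in that sum in percent; points are libraries by mouse and bars are mean ± s.d. of 5. TdTomato+ libraries lie at 94.1% or more and TdTomato- libraries at 42.3% or less.

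Markers of other cells of the embryonic cortex fell along with Slc17a6. Summed levels of the 8 intermediate progenitor markers were 99.2 to 149.6 CPM in TdTomato+ and 1059 to 1348 CPM in TdTomato- libraries. By point estimate all 8 had a lower log2 fold change than Slc17a6 (-2.540, SE 0.13). Gadd45g (-2.545, SE 0.16) and Insm1 (-2.61, SE 0.14) did not stand apart from it. The 8 Cajal-Retzius markers summed to 160.3 to 201 and 301 to 529.6 CPM, and 4 of 8 had a lower log2 fold change than Slc17a6. Reln, the secreted glycoprotein that Cajal-Retzius neurons make, still had 137 CPM in TdTomato+ against 246 CPM in TdTomato- libraries. No marker of these lists was at 0 throughout the TdTomato+ libraries, and the part of these cells in the Slc17a6 values was not tested.

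The plasma membrane glutamate transporters gave a rise, a fall and a member with no detected difference. Slc1a1 (chr19:28835049-28913960, plus strand), the carrier of neuronal cell bodies and dendrites that also takes up cysteine, had 102, 78.1, 78.9, 92.1 and 91.8 CPM in the TdTomato+ libraries of mice 2 to 6. Its TdTomato- values were 18.8, 15.8, 17.8, 15.3 and 21.01 CPM, so every TdTomato+ library was above every TdTomato- library. With means of 88.6 ± 10.1 and 17.7 ± 2.31 CPM, its log2 fold change was 2.32 (SE 0.07, adjusted p = 1.0e-08, edgeR), or 4.99-fold higher. Of its annotated exon bases, 31.9% overlap 4430402I18Rik, and although the library kits named in the labels and in the methods, which differ, both keep strand, the strand column that was counted is not given, so how reads of the shared bases were assigned is uncertain. That neighbour itself had means of 1.91 and 1.11 CPM in the TdTomato+ and TdTomato- libraries.

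Slc1a3 (chr15:8634124-8710764, minus strand), the GLAST carrier of radial glia and astrocytes, ran the other way. Its TdTomato+ libraries had 25.9, 30.6, 24.4, 28.8 and 34.4 CPM in mice 2 to 6, and its TdTomato- libraries had 154.9, 111, 89.7, 155.0 and 158.5 CPM. No TdTomato+ library reached the lowest TdTomato- value, that of mouse 4. Means were 28.8 ± 3.94 and 134 ± 31.4 CPM, a log2 fold change of -2.19 (SE 0.11, adjusted p = 1.3e-07) or 4.57-fold lower in TdTomato+ cells. With TREAT, which makes the log2 threshold of 2 the null value of the test, 3 members passed rather than 4, beside 1350 of the 14300 genes, and the member lost was Slc1a3.

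Slc1a2 (chr2:102658659-102790784, plus strand) encodes GLT-1, the main glutamate carrier of the adult forebrain, and its levels in the 2 populations overlapped. TdTomato+ libraries of mice 2 to 6 had 127, 203, 195, 151 and 90.6 CPM, and TdTomato- libraries had 145, 130.0, 176.5, 122 and 109 CPM. It was higher in TdTomato+ cells in mice 3, 4 and 5 and lower in mice 2 and 6. Means of 153 ± 47.0 and 136 ± 25.9 CPM gave a log2 fold change of 0.13 (95% interval -0.14 to 0.40, adjusted p = 0.33), so the interval runs from a small fall to a moderate rise. By library size alone, without TMM scaling factors, its log2 fold change was -0.05, and it was 0.00 without mouse 3 and 0.24 without mouse 6. It was among the members that varied most within the TdTomato+ population, with an SD of 0.48 on the log2 CPM scale, beside a median of 0.10 over the 9785 genes with a mean log2 CPM of at least 3.

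Within a library, the balance between these carriers also differed. The log2 ratio of Slc1a3 to Slc1a2 was -2.36 ± 0.61 in TdTomato+ and -0.04 ± 0.59 in TdTomato- libraries, a difference of -2.32 that was negative in 5 of 5 mice, from -2.74 to -1.94. For Slc1a1 to Slc1a3 the ratio was 1.62 ± 0.25 against -2.89 ± 0.37, a difference of 4.51 that was positive in 5 of 5 mice, from 4.02 to 5.02. Both had the smallest paired value possible, p = 0.063 in the exact sign-flip test, also after adjustment over the 4 ratios examined.

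Glial markers were also lower in the TdTomato+ libraries. The 12 radial glia markers summed to 632 to 1028 CPM in TdTomato+ and 2316 to 2952 CPM in TdTomato- libraries, and 11 of 12 had a lower log2 fold change than Slc1a3. The exception was Ptprz1, a receptor phosphatase, which rose by 0.58 on the log2 scale and made up 712 CPM of the TdTomato+ sum. Of 8 astrocyte markers, Gfap and S100b had no row in the table, the other 6 fell, and these summed to 32.5 to 42.3 against 346.5 to 467 CPM. Aqp4, the astrocyte water channel, was at 0 in some TdTomato+ libraries, and Aldh1l1 was at 0.494 against 21.03 CPM. All 6 measured astrocyte markers and 11 of 12 radial glia markers had a lower log2 fold change than Slc1a2 too, although Slc1a2 was not called. Their part in the values of Slc1a3 and Slc1a2 was not tested.

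**Figure D3:**
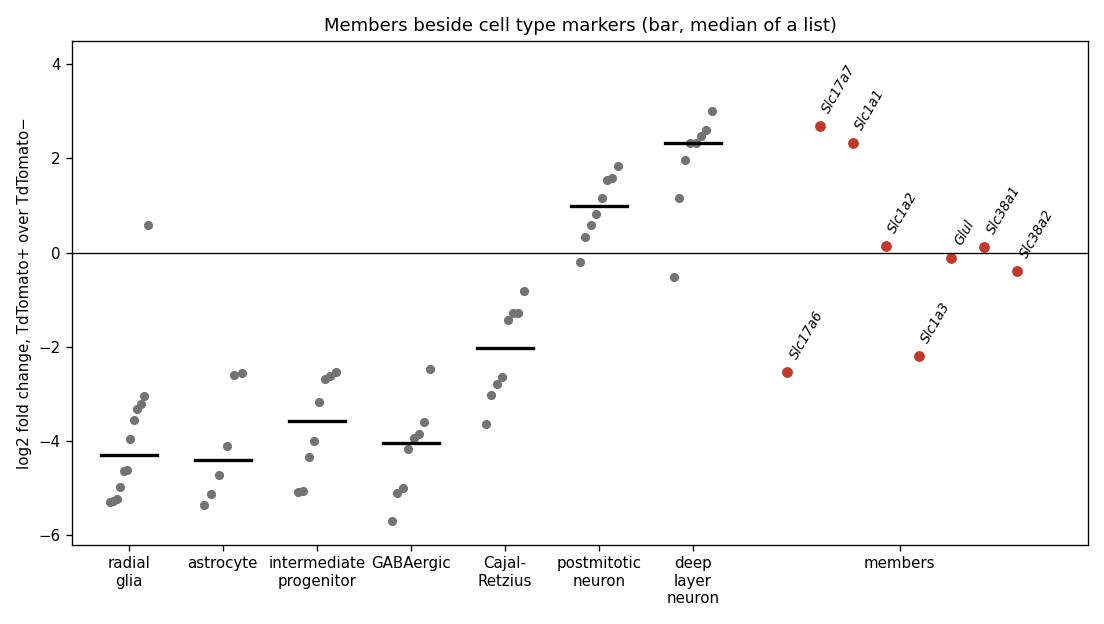
Log2 fold change (TdTomato+ over TdTomato-) of each marker of 7 cell types (grey points, bars are list medians) and of the 8 members (red). Slc17a7 and Slc1a1 lie at the height of the deep-layer neuron markers (median 2.33), whereas Slc1a3 lies above all but 1 radial glia marker (median -4.29).

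Markers of deep-layer and of postmitotic neurons rose along with Slc17a7 and Slc1a1, except for Foxp2 (-0.52 on the log2 scale) and Nefl (-0.20), which were not called. Summed levels of 8 deep-layer markers were 4984 to 5985 CPM in TdTomato+ and 1269 to 1700 CPM in TdTomato- libraries, with a median log2 fold change of 2.33. Slc17a7 had a higher log2 fold change than 7 of these 8 markers and Slc1a1 than 3 of 8. Both were above all 8 markers of postmitotic neurons, whose median was 0.98. How far the share of neurons sets these 2 values was not tested.

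Glul, the ATP-dependent enzyme that makes glutamine from glutamate and ammonia, differed little between the populations. Glul (chr1:153899944-153909723, plus strand) was at 118, 134, 125.6, 134 and 125.5 CPM in TdTomato+ and at 132, 136, 142, 139.5 and 141 CPM in TdTomato- libraries of mice 2 to 6. The ranges overlapped, but the TdTomato+ library was lower within each of the 5 mice. Means of 128 ± 6.85 and 138 ± 4.16 CPM gave a log2 fold change of -0.12 (95% interval -0.21 to -0.02, adjusted p = 0.030, edgeR). The call was lost with DESeq2 (adjusted p = 0.0811) and without mouse 2, 4 or 6 (adjusted p = 0.0723, 0.0862 and 0.116), while by library size alone the log2 fold change was -0.29 (adjusted p = 0.000181). All 6 measured astrocyte markers had a lower log2 fold change than Glul.

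The glutamine transporters lie side by side on the minus strand of chromosome 15, 44478 bases apart, and both were abundant in both populations. They carry glutamine and other small neutral amino acids together with sodium. Slc38a1 (chr15:96571418-96642913) had 410.1, 413, 418, 423 and 431 CPM in TdTomato+ and 364, 403, 398.5, 378 and 386 CPM in TdTomato- libraries of mice 2 to 6. With TMM scaling the ranges came close without overlapping, and the log2 fold change was 0.12 (95% interval 0.03 to 0.20, adjusted p = 0.018, edgeR). By library size alone the direction of Slc38a1 turned, to -0.06 (adjusted p = 0.158), and without mouse 5 its adjusted p was 0.0538.

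Slc38a2 (chr15:96687392-96699730), which cells also induce when amino acids are short, had 261, 281, 284.5, 291 and 273 CPM in TdTomato+ libraries. Its TdTomato- libraries had 368, 380.5, 386, 351 and 335 CPM, all above the TdTomato+ range. Means were 278 ± 11.6 and 364 ± 21.1 CPM, and the log2 fold change was -0.39 (SE 0.04, adjusted p = 3.9e-05), a 1.31-fold lower level in TdTomato+ cells. Within a library the log2 ratio of Slc38a1 to Slc38a2 was 0.59 ± 0.06 in TdTomato+ and 0.09 ± 0.08 in TdTomato- libraries, and the difference of 0.51 was positive in 5 of 5 mice, from 0.43 to 0.67 (exact sign-flip p = 0.063, the smallest possible).

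Set per kilobase of annotated exon, the levels of the 8 genes ranked differently in each population. In TdTomato+ libraries Slc17a7 (42.7 ± 9.22 CPM per kb) and Glul (38.4 ± 2.06) led, with overlapping ranges, above Slc38a2 (31.5 ± 1.32) and Slc38a1 (24.3 ± 0.471). Slc1a2 (11.7 ± 3.58) and Slc1a1 (10.7 ± 1.22) followed with overlapping ranges, and Slc1a3 (3.38 ± 0.462) and Slc17a6 (2.00 ± 0.612) were last. In TdTomato- libraries Glul (41.6 ± 1.25) and Slc38a2 (41.2 ± 2.39) led with overlapping ranges, then Slc38a1 (22.4 ± 0.909). Below them Slc1a3 (15.7 ± 3.68), Slc17a6 (11.4 ± 1.74), Slc1a2 (10.4 ± 1.97) and Slc17a7 (6.67 ± 1.91) each overlapped the next, and Slc1a1 (2.15 ± 0.280) was lowest. By its mean, Slc17a7 ranked highest among the 8 in TdTomato+ and next to lowest in TdTomato- libraries, but its TdTomato+ values in mice 5 and 6 were below those of Glul. These lengths count every annotated exon, so a gene whose cells use shorter transcripts is set too low.

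**Figure D4:**
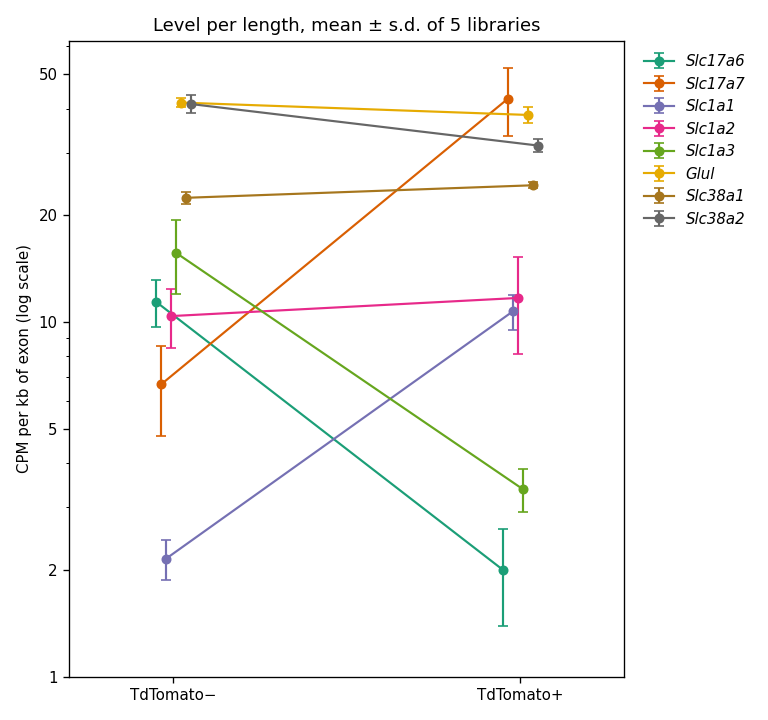
Mean level in CPM per kb of exon (log scale) of the 8 genes in TdTomato- and TdTomato+ libraries, with s.d. of 5 libraries. Slc17a7 goes from 6.67 to 42.7 and Slc17a6 from 11.4 to 2.00, while Glul, Slc38a1 and Slc38a2 stay above 20 in both.

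The members differed in how much their libraries varied within a population. On the log2 CPM scale the SD of Slc38a1 was 0.03 in TdTomato+ and 0.06 in TdTomato- libraries, that of Slc38a2 0.06 and 0.08, and that of Glul 0.08 and 0.04, all below the medians of 0.10 and 0.11 over all genes of that level. For Slc17a7 it was 0.31 and 0.42, for Slc17a6 0.53 and 0.21, for Slc1a3 0.20 and 0.37, and for Slc1a1 0.16 and 0.19, all above them. In TdTomato- libraries, mice 3 and 4 had the highest Slc17a6 and Slc17a7 levels and the lowest Slc1a3 levels.

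Genes with the most similar profile were found for each member as those with the smallest root mean square difference of centred log2 CPM over the 10 libraries. For Slc17a7 these were Tbr1 (0.21), a transcription factor of deep-layer neurons, Kit (0.21), a receptor tyrosine kinase, and Ppp2r2c (0.22), a phosphatase subunit. Slc17a6 was closest to Iqgap2 (0.155), Ackr3 (0.184), a chemokine receptor, and Tmtc2 (0.195). For Slc1a1 they were Rhof (0.071), Lingo1 (0.107) and Rapgefl1 (0.122), and for Slc1a3 Lima1 (0.116), Nfatc4 (0.175) and Paqr8 (0.177). Slc1a2 was closest to Tmem200a (0.157), Tshz2 (0.158) and Sulf2 (0.163). The nearest genes to Glul, Slc38a1 and Slc38a2 were Herpud2 (0.0388), Fam168b (0.0336) and Ppp6r3 (0.0387). The likeness is a description over libraries that share the population contrast.

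The wider pathway was read from 64 further genes, of which 57 were in the table. Of these 28 were called higher, 19 lower and 10 neither, beside 37.9% called higher and 39.4% called lower among all genes, and their median log2 fold change was 0.20. By library size alone 23 were called higher and 25 lower. Of the 57, 0 passed both thresholds upward and 6 did downward, beside 3.2% and 9.74% of all genes, so these counts lie near the background. Among the 14 genes of glutamate metabolism, Glud1, glutamate dehydrogenase, was at 134 and 136 CPM and was not called. Asns, which makes asparagine with the amide of glutamine, rose by 0.71 on the log2 scale. Oat, ornithine aminotransferase, fell by 1.10, and Aldh18a1, the first enzyme from glutamate to proline, fell by 0.46. Of the 14, 4 were called higher and 6 lower, near the background of 37.9% and 39.4%.

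A list of 9 other genes, plasma membrane carriers of glutamate and neutral amino acids with their partner proteins, held 3 called higher and 5 called lower, beside 37.9% and 39.4% of all genes. With DESeq2 and without mouse 6, 3 were called lower. Slc1a5, the ASCT2 exchanger through which dividing cells take up glutamine, was at 2.02 ± 0.419 against 16.5 ± 1.54 CPM, a log2 fold change of -3.03 (SE 0.12, adjusted p = 4.1e-08). Slc7a11, the cystine-glutamate exchanger, was at 0.213 against 3.45 CPM, and its TdTomato+ libraries, at 0.0904 to 0.317 CPM, lay about the level of 3 counts (0.130 to 0.136 CPM). Arl6ip5, a membrane protein that binds EAAT3 and lowers its activity, rose by 1.04 on the log2 scale, from 46.8 to 96.6 CPM. Slc1a6 (EAAT4), the glutamate carrier best known from Purkinje cells, was scarce, at 2.401 against 1.02 CPM with overlapping ranges, and was called higher. Slc1a7 was not among the genes of the table.

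Among other members of the Slc38 family, 5 of 9 were in the table. Slc38a3 (SNAT3), which moves glutamine out of astrocytes, was at 0.658 ± 0.322 against 12.7 ± 3.79 CPM, a log2 fold change of -4.26 (SE 0.21, adjusted p = 1.3e-07). Its TdTomato+ range of 0.260 to 1.08 CPM was far below the TdTomato- range of 8.10 to 17.8 CPM. The lysosomal carriers Slc38a7 and Slc38a9 rose by 0.60 and 0.71, and Slc38a10 fell by 0.21. Of the other vesicular and lysosomal Slc17 carriers, Slc17a5 (sialin) was at 13.1 and 13.8 CPM and was not called, and Slc17a8 (VGLUT3) and Slc17a9 had no row in the table.

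The vacuolar proton pump that powers vesicle filling moved mostly in one direction. Of its 16 subunit and accessory genes, 15 were called higher and 0 lower, beside a background of 37.9% called higher, with a median log2 fold change of 0.39. Summed, they had 1731 to 1821 CPM in TdTomato+ and 1213 to 1350 CPM in TdTomato- libraries. Atp6v1g2 and Atp6v0a1, which encode subunits known from neurons, had the largest changes, 0.96 (SE 0.06) and 0.94 (SE 0.04). Atp6v1g1 was at 64.9 against 61.1 CPM (log2 fold change 0.09, adjusted p = 0.22). By library size alone 12 of the 16 were called higher and 0 lower. Markers of postmitotic neurons rose in the same libraries, with 7 of 8 called higher and a summed level of 9157 to 10210 against 4916 to 5636 CPM, and their part in this list was not tested.

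**Figure D5:**
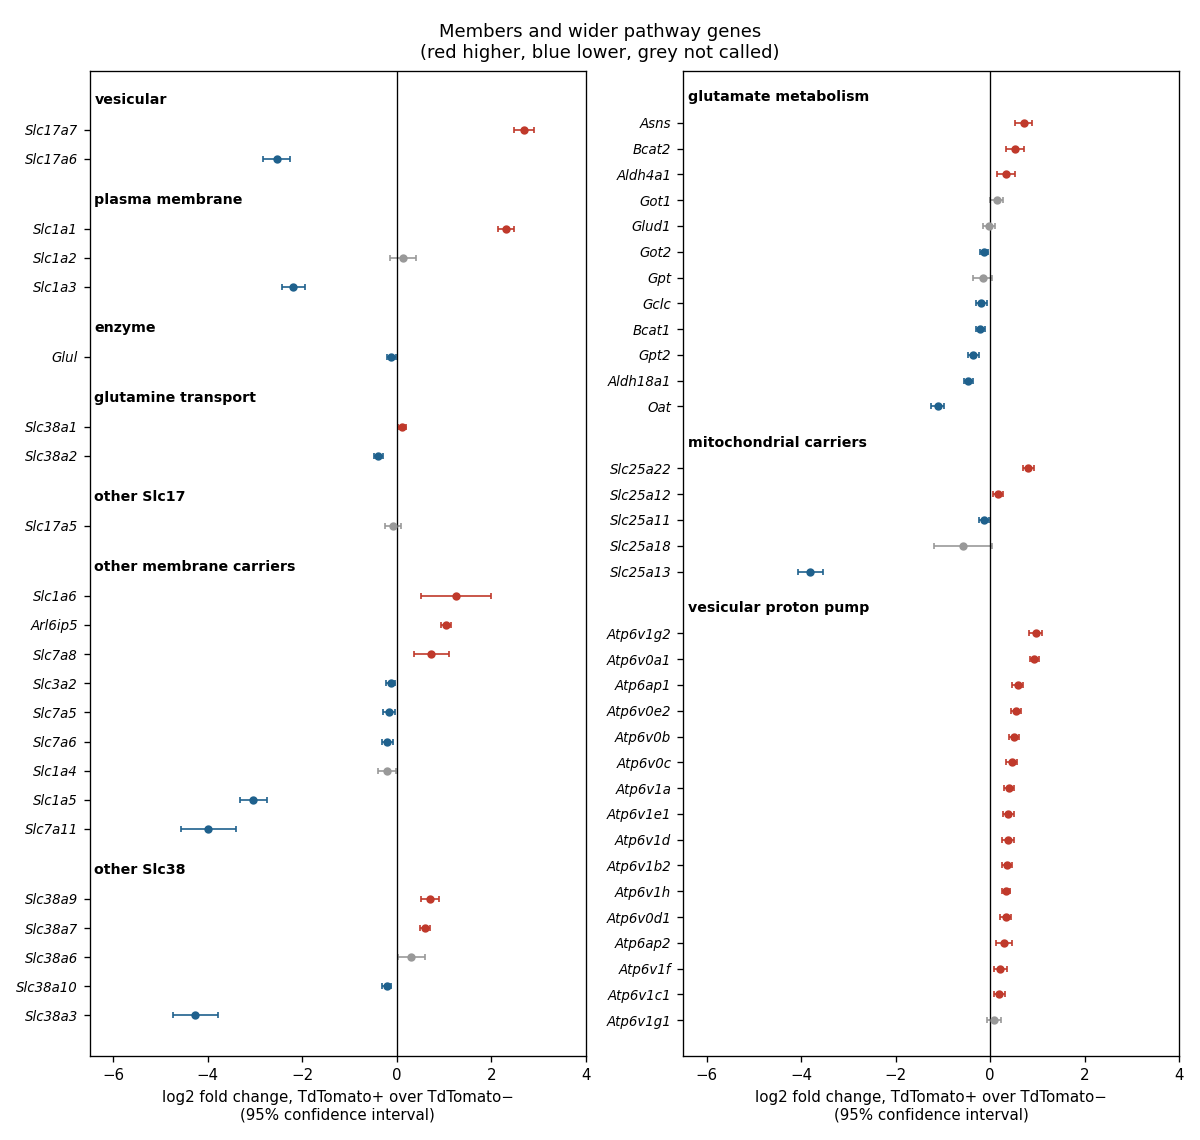
Log2 fold change (TdTomato+ over TdTomato-) with its 95% confidence interval for the 8 members and genes of the wider lists that are in the table, red where called higher, blue where called lower and grey where not called. The proton pump genes cluster between 0.09 and 0.96, whereas carriers and enzymes spread to both sides of 0.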

How the data were processed

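The table the authors deposited holds raw counts for 10 libraries and 14300 genes. Each gene had at least 0.501 CPM, here by library size alone, in at least 5 of them. Per the labels and the methods of the study, bases under a Phred score of 28 were trimmed, STAR 2.4.2a aligned the reads to GRCm38 with up to 1 mismatch, and its quantMode option counted unique reads. The annotation release and strand column are not given in the sources used here. The methods mention removal of outliers, and all 10 libraries of the table were used here.

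The counts were fitted in edgeR 4.0.16 (R 4.3.3) by filterByExpr, TMM, glmQLFit and glmQLFTest, blocked on mouse number after the paired comparisons of the study, with Benjamini-Hochberg adjustment over all genes. Prior counts were 0.125 in fitted fold changes, 2 in log2 CPM and 0.5 in ratios. Deviations from population means correlated at 0.303, 0.268, 0.281, 0.186 and 0.316 within mice 2 to 6 and at -0.312 to 0.212 between numbers. Mouse 5 was below the highest value between numbers, so this check does not set every pair apart from unlike libraries. Libraries of a population differed beyond counting noise (chi-square per degree of freedom 4.46 to 32). A floor of 3 counts equals 0.104 to 0.136 CPM and covers counting error only. GENCODE M21 gave symbols, positions and exon lengths for 14271 genes.

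Members, gene lists and marker lists were chosen with earlier results of these data known. Named genes are those, Grem1, and for each member the most similar genes with a mean log2 CPM of at least 3. Some genes of the lists are not reported here by name and are not drawn, but stay in the counts. Alternatives were other normalizations (RLE, upper quartile), DESeq2 1.42.0, other count filters, no replicate block, robust estimation, a prior count of 2, TREAT and leaving out each mouse; scaling by library size alone was added after the data had been seen.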

Additional observations from a re-analysis of the deposited data

How the results depend on the processing

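Of 112 member fold changes recomputed under alternatives, 105 kept their direction and side of the threshold. The 4 ratio differences kept their direction in all 28 recomputed values. For 24 of these only the direction of the mean was compared, without a test, since the paired test cannot pass 0.05 with 5 mice or fewer. Under scaling by library size alone, chosen after seeing the data, Slc1a2 and Slc38a1 changed sign, to -0.046 (adjusted p = 0.74) and -0.059 (adjusted p = 0.158). The median of all genes then moved from -0.0063 to -0.184, and calls of 5424 higher and 5632 lower became 4110 and 7123, so the sign of small changes rests on the scaling. The log2 fold change of Glul was -0.11 with DESeq2 (adjusted p = 0.0811) and -0.14 to -0.095 with each mouse left out, and that of Slc38a1 was 0.11 to 0.14 with each mouse left out. Leaving out a mouse gave -2.60 to -2.39 for Slc17a6, 2.60 to 2.77 for Slc17a7, 2.25 to 2.38 for Slc1a1, 0.00 to 0.24 for Slc1a2, -2.27 to -2.10 for Slc1a3 and -0.42 to -0.36 for Slc38a2. Members called numbered 6 or 7 under the alternatives, members past both thresholds 4, or 3 with TREAT, and 43 to 48 genes of the wider lists were called rather than 47. Glul was at -0.29 (adjusted p = 0.000181) by library size alone. With TREAT, 1350 of all genes passed rather than 1850.

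With no replicate block, the 7 called members were again called and Slc1a2 again was not, with 10674 genes called rather than 11056. Without the pairing, the 4 log2 ratio differences of 5.27, -2.32, 4.51 and 0.51 each had an exact permutation p = 0.00794, the smallest value of that design. That permutation ignores the pairing by mouse, so it does not stand in for the paired test, which cannot reach 0.05 with 5 mouse pairs. Counting error limits Slc7a11 and Slc38a3, which had as few as 2 and 6 reads in a TdTomato+ library.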

Other observations

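Carriers and channels that bear on glutamate handling from further off also differed between the populations. Slc25a22, a mitochondrial glutamate carrier, had 117 ± 6.29 CPM (SD, n = 5) in TdTomato+ libraries against 66.5 ± 2.98 CPM in TdTomato- libraries, a log2 fold change of 0.81 (adjusted p = 6.5e-07, edgeR). Its ranges of 109 to 125 and 63.6 to 70.7 CPM did not overlap. The aspartate-glutamate carriers, which exchange the amino acids across the inner mitochondrial membrane, differed between paralogs. Slc25a13 was at 0.945 ± 0.170 against 13.3 ± 1.13 CPM, a log2 fold change of -3.81, while Slc25a12 was at 89.0 against 79.0 CPM, a log2 fold change of 0.17 that became -0.01 by library size alone. Of the 5 mitochondrial carriers, 2 were called higher and 2 lower, near the 77.3% of all genes called, with 1 lower without mouse 3, 4, 5 or 6, with DESeq2 or with no block, and 1 higher and 3 lower by library size alone.

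Kcnj10, a potassium channel of glia, had 0.755 ± 0.331 CPM in TdTomato+ libraries against 30.4 ± 11.5 CPM in TdTomato- libraries, a log2 fold change of -5.31 (adjusted p = 6.8e-09), and its ranges did not overlap.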
